A study of Mus musculus with 8 samples.

Results

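Nucleosome positions were described over chromosome 7 from 32 to 34 Mb (mm9, chr7:32000001-34000000) in mouse spermatocytes, round spermatids and condensing spermatids. A position is a place where fragments protected from micrococcal nuclease (MNase, an enzyme that cuts DNA between nucleosomes) pile up, and its summit is the base of highest coverage. All positions with a summit in the window were taken from the 8 deposited lists, 29456 of 37444400 on chromosomes 1 to 19 and X, or 0.07867%. The window was chosen by its number of positions in H2A.L.2-less against WT round spermatids, which was highest in its second Mb, so the numbers of positions at that stage are given here as a description. The 2 Mb on either side, from 30 to 32 Mb and from 34 to 36 Mb, served for comparison. The window and each flank were cut into 20 steps of 100 kb.

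In most of the genome, nucleosomes package DNA at every stage up to the round spermatid. During condensation, transition proteins and later protamines take the place of histones, and H2A.L.2, a short testis variant of histone H2A, takes part in that exchange. Particles smaller than a nucleosome are protected from MNase at the condensing stage. H2A.L.2 is known as a protein of condensing spermatids, later than the spermatocytes also profiled here.

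The groups were WT and H2A.L.2-less testis cells, each enriched for spermatocytes, round spermatids or condensing spermatids. Condensing spermatids gave 1 library of nucleosome-sized fragments (130 to 170 bp) and 1 of small structures (40 to 80 bp) per genotype, which makes 8 libraries with 1 in each group. Allele, strain, age, number of animals and purity of the fractions are not given in the sources used here. With 1 library per group no difference below has a replicate check, no test was made, and every interval covers counting error only. Positions on DNA carry no marker of cell type, so the labelled stages were not checked. A region covered by fewer reads yields fewer positions above the calling floor, and whether fewer nucleosomes or less coverage was behind a low number cannot be told apart from these lists.

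Across chromosomes 1 to 19 the lists held between 155 (condensing nucleosomes, WT) and 220 (round spermatids, WT) positions per 100 kb. Density is therefore given relative to that mean of the same list. The H2A.L.2-less lists were shorter than the WT lists in spermatocytes (4853610 and 5306949 positions) and round spermatids (4747226 and 5385833). The window went the other way in both stages.

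The window held 1864 positions in WT spermatocytes against 3435 in H2A.L.2-less spermatocytes. In round spermatids it held 2567 in WT against 4559 in H2A.L.2-less cells. The condensing nucleosome lists held 5345 in WT against 5316 in H2A.L.2-less cells, and the small-structure lists 3741 and 2629. Thus the genotypes lay far apart at the earlier stages, and side by side once nucleosomes of condensing spermatids were mapped.

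Relative density in WT spermatocytes was 0.435, and it was 0.582 for round spermatids, 1.72 for condensing nucleosomes and 0.854 for small structures, where 1 is the autosomal mean. In H2A.L.2-less cells the same values were 0.871, 1.17, 1.67 and 0.784. The window thus passed from a stretch with few positions to one of the densest of its list along the WT series. At the condensing stage its flanks were dense too. Among 1222 autosomal windows of 2 Mb, only 17 had a lower density in WT spermatocytes and only 9 had a higher one in WT condensing nucleosomes. Without H2A.L.2 the spermatocyte window ranked near the middle, with 413 windows lower, and the round spermatid window near the top, with 1109 lower. For condensing nucleosomes of H2A.L.2-less cells 1206 windows were lower. Both small-structure lists placed it in the middle, with 559 windows lower in WT against 553 in H2A.L.2-less cells.

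Taken over their whole 2 Mb, the flanks did not share the low WT values. The right flank was low next to the window, at 0.602 in WT spermatocytes and 0.858 in WT round spermatids from 34 to 34.1 Mb. From 30 to 32 Mb relative density was 1.27 in WT spermatocytes and 1.39 in WT round spermatids. From 34 to 36 Mb it was 1.12 and 1.24. In H2A.L.2-less cells the flanks were at 1.13 and 1.15 in spermatocytes and at 0.980 and 1.15 in round spermatids. In round spermatids without H2A.L.2 the window, with 4559 positions, was about level with the right flank, with 4471, and denser than the left. In WT round spermatids it was the least dense of the 3 areas. The window was selected on these round spermatid lists, so this order is a description only. Condensing nucleosomes were nearly as dense in the flanks as in the window. They were at 1.52 on the left and 1.66 on the right in WT, and at 1.56 and 1.63 in H2A.L.2-less cells. Small structures were dense on the left, at 1.99 in WT against 2.22 in H2A.L.2-less cells, and dropped below the autosomal mean in the window. They stayed below it in each step from 34 to 34.6 Mb in both genotypes.

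**Figure D1:**
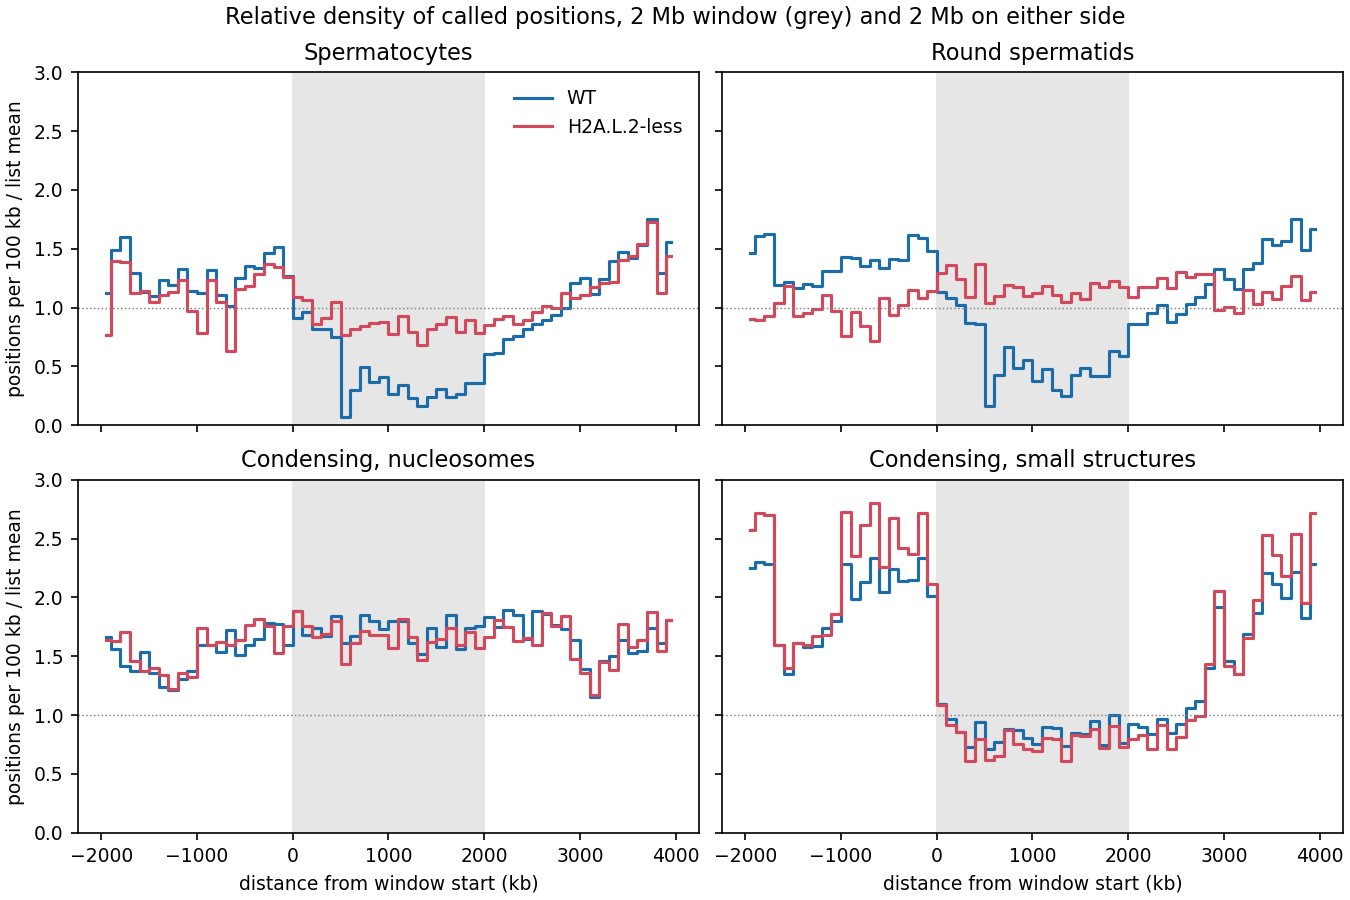
Number of positions per 100 kb over the autosomal mean of the same list, against distance from the start of the window, with 1 panel per stage and fragment class and 1 line per genotype. The shaded 2 Mb are the window. In WT the window lay at 0.435 in spermatocytes and 0.582 in round spermatids, below both flanks, while the condensing nucleosome lines of both genotypes overlap, at 1.72 and 1.67.

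The low WT density was not even along the window. Its first 5 steps, from 32 to 32.5 Mb, had a relative density of 0.854 in WT spermatocytes and 0.994 in WT round spermatids. The remaining 15 steps had 0.295 and 0.445. In H2A.L.2-less cells the same segments had 0.995 and 0.829 in spermatocytes and 1.27 and 1.14 in round spermatids. The segment from 32.5 to 34 Mb, which was marked out after its step values were seen, therefore carried most of the difference between genotypes.

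Over the 20 steps WT spermatocytes had between 16 and 207 positions (median 75.5), and H2A.L.2-less spermatocytes between 135 and 215 (median 170). WT round spermatids ranged from 37 to 250 (median 107), and H2A.L.2-less round spermatids from 202 to 267 (median 228.5). Condensing nucleosomes had 236 to 292 in WT (median 270) and 229 to 301 in H2A.L.2-less cells (median 267). Steps of the early WT lists were thus spread widely and the others narrowly. The coefficient of variation over the 20 steps was 61.2% in WT against 11.9% in H2A.L.2-less spermatocytes. For round spermatids it was 47.4% and 8.08%, and for condensing nucleosomes 6.12% and 6.58%.

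A sharp border lay at 32.5 Mb. WT spermatocytes had 160 positions in the 100 kb before it and 16 in the 100 kb after it. WT round spermatids had 190 and 37. The change there was far smaller in H2A.L.2-less cells, with 206 and 151 in spermatocytes and 267 and 202 in round spermatids. Condensing nucleosomes went from 286 to 250 in WT and from 287 to 229 in H2A.L.2-less cells. At 10 kb resolution WT spermatocytes had 25 positions in the last 10 kb before the border and then 2, 1, 1 and 1 in the next 4. In WT round spermatids the same 5 stretches held 28, 8, 2, 2 and 1. H2A.L.2-less spermatocytes had 32 and then 15, 12, 13 and 14, so the drop was present there too but stopped far above 0. Over the same 10 kb on either side, H2A.L.2-less round spermatids went from 35 to 17. Condensing nucleosomes went from 34 to 18 in WT and from 33 to 18 in H2A.L.2-less cells. The last 10 kb before the border were a local high, since WT spermatocytes had only 8 positions at chr7:32460001-32470000. Small structures fell at the same place, from 34 to 6 in WT and from 24 to 8 in H2A.L.2-less cells, and were back at 18 and 15 by the third 10 kb.

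The bounds of the window itself were no such border in the early lists. Just outside and just inside 32 Mb, WT spermatocytes had 271 and 196 positions per 100 kb, and WT round spermatids 326 and 250. Small structures changed most there, from 440 to 239 in WT and from 355 to 182 in H2A.L.2-less cells. At 34 Mb WT spermatocytes had 77 just inside and 129 just outside, and WT round spermatids 129 and 189. H2A.L.2-less spermatocytes had 155 and 168, and H2A.L.2-less round spermatids 228 and 212. Low numbers in WT spermatocytes therefore went on past the right bound at a lesser depth, with a relative density of 0.800 from 34 to 34.9 Mb. In WT round spermatids that segment was at 0.982, near the autosomal mean, and only its first steps were low, at 0.858 from 34 to 34.1 Mb. The end at 34.9 Mb was set after the step values were seen.

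The log2 ratio of relative density, H2A.L.2-less over WT, was 1.002 in spermatocytes (95% counting interval 0.92 to 1.08) and 1.01 in round spermatids (0.94 to 1.08). Relative to the autosomes, density was 2.002-fold and 2.01-fold as high without H2A.L.2, and the round spermatid contrast is the one the window was selected on. For condensing nucleosomes it was -0.05 (-0.10 to 0.01), and for small structures -0.12 (-0.19 to -0.05). In the left flank the 4 ratios were -0.17, -0.50, 0.04 and 0.16 in the same order, and in the right flank 0.03, -0.11, -0.03 and 0.05. Over their whole length the flanks were thus level or tipped towards WT in both early stages. The part of the right flank up to 34.9 Mb was an exception, at 0.24 (0.14 to 0.34) in spermatocytes and 0.31 (0.22 to 0.40) in round spermatids. Its end was set where the run of step ratios above 0 ended, so values above 0 there follow from the cut. Of 1220 autosomal windows of 2 Mb (those where both lists together had at least 800 positions), none had a higher ratio in spermatocytes or in round spermatids. Nothing is read from the round spermatid rank, because of that selection. Step ratios of the 2 stages also went together in the flanks (Pearson's r 0.65 on the left, 0.82 on the right). The spermatocyte rank is thus not independent of the selection. The condensing nucleosome ratio was in the lower tail of a narrow spread, with 1106 of 1218 windows higher, and the small-structure ratio had 920 higher.

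Within the window the ratio was larger in the second Mb. There WT spermatocytes had 596 positions and H2A.L.2-less spermatocytes 1631, a log2 ratio of 1.57 (1.44 to 1.71). WT round spermatids had 964 and H2A.L.2-less round spermatids 2230, a log2 ratio of 1.39 (1.28 to 1.4996), which is the value the window was chosen by. In the first Mb the ratios were 0.63 and 0.72. Condensing nucleosomes had the same log2 ratio, -0.05, in both Mb.

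Steps were counted where the log2 ratio, with 1 position added to both numbers, was at least 1 or at most -1, among steps with at least 40 positions in both lists together. In spermatocytes 14 of the 20 steps were at least 1, against 0.075% of 23999 autosomal steps, and 4 such steps lay elsewhere on the autosomes. In round spermatids 11 of 20 were at least 1, against 0.0708% of 24000, with 6 elsewhere, and nothing is read from that count because the window was selected on this contrast. The spermatocyte count is not independent of that selection. No step of the window was at most -1, against 0.00833% of autosomal steps in spermatocytes and 0.104% in round spermatids. For condensing nucleosomes 0 of 20 were past either limit, against 0.0709% at least 1 and 0.00834% at most -1. For small structures 0 of 20 were past either limit, against 0% and 0.0125%. The high steps formed an unbroken run from 32.8 to 34 Mb in spermatocytes (12 steps) and from 33.0 to 33.8 Mb in round spermatids (8 steps). Ratios above 0 ran without a break over 29 steps from 32 to 34.9 Mb in both stages, and so past the right bound.

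**Figure D2:**
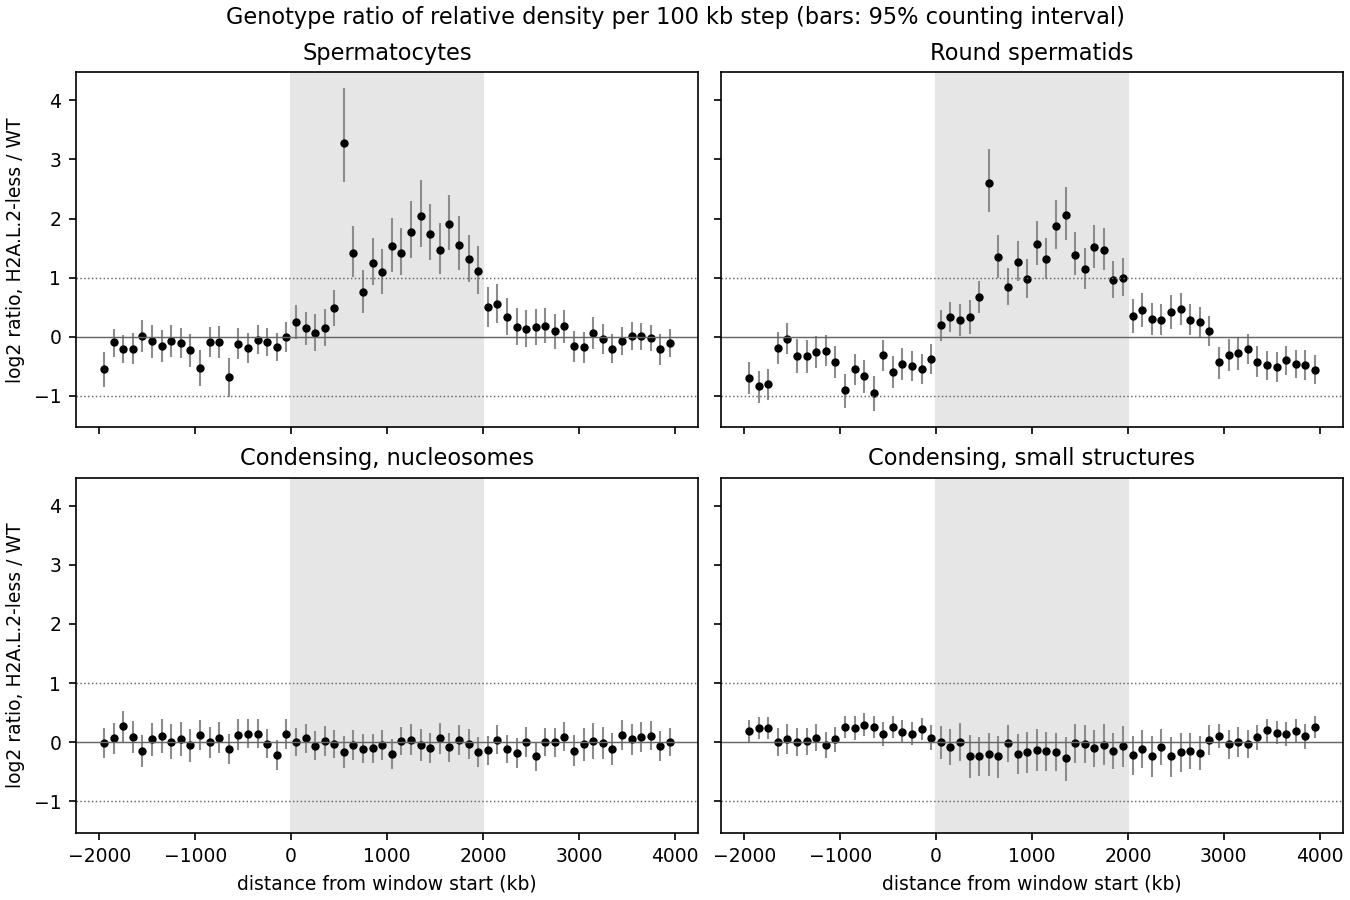
Log2 ratio of relative density, H2A.L.2-less over WT, per 100 kb step against distance from the start of the window, with 1 panel per stage and fragment class and vertical bars for the 95% counting interval. The shaded 2 Mb are the window. Spermatocytes and round spermatids reach 3.28 and 2.60 in the step at 32.5 Mb, while condensing nucleosomes and small structures stay near 0.

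Across the 20 steps of the window the spermatocyte and round spermatid ratios had a Pearson's r of 0.97 and a Spearman's rho of 0.95. The window was selected on the round spermatid ratio, which spread more widely in it than in the flanks. Neighbouring steps may also not be independent, so these values are a description only.

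The 3 steps with the highest round spermatid ratio were at 32.5, 33.3 and 33.2 Mb. From 32.5 to 32.6 Mb there were 16 positions in WT against 151 in H2A.L.2-less spermatocytes, a log2 ratio of 3.28. In round spermatids there were 37 and 202, a log2 ratio of 2.60. Condensing nucleosomes had 250 and 229 there, and small structures 157 and 104. This step was the emptiest of the window in both early WT lists and also the lowest for H2A.L.2-less condensing nucleosomes, where it lay much nearer to the median of 267. From 33.3 to 33.4 Mb spermatocytes had 35 and 135 and round spermatids 55 and 204, log2 ratios of 2.04 and 2.05, beside 236 and 234 condensing nucleosomes. From 33.2 to 33.3 Mb spermatocytes had 49 and 157 and round spermatids 66 and 216, log2 ratios of 1.78 and 1.87, beside 251 and 266 condensing nucleosomes. Small structures numbered 162 and 102 in the former and 196 and 134 in the latter.

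The 3 steps with the lowest round spermatid ratio all lay before 32.4 Mb. From 32 to 32.1 Mb spermatocytes had 196 positions in WT against 215 in H2A.L.2-less cells, and round spermatids 250 and 252. From 32.2 to 32.3 Mb the numbers were 176 and 170, and 226 and 242. From 32.3 to 32.4 Mb they were 176 and 180, and 191 and 212. Their log2 ratios were 0.25, 0.07 and 0.15 in spermatocytes and 0.19, 0.28 and 0.33 in round spermatids, so the left end of the window was nearly level between genotypes. Condensing nucleosomes were as dense there as elsewhere in the window, with 292 and 301, 270 and 266, and 259 and 269.

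Long stretches of the window held no position in the early WT lists although other lists placed positions there. In WT spermatocytes 65 stretches of over 5 kb without a summit covered 504585 bp, 25.2% of the window. The same stretches held 634 summits in H2A.L.2-less spermatocytes, 240 in WT round spermatids and 980 in H2A.L.2-less round spermatids. They also held 1194 and 1156 condensing nucleosomes and 714 and 520 small structures, WT and H2A.L.2-less. So every other list had positions in them, but at a lower relative density than in the whole window. It was 0.637 in H2A.L.2-less spermatocytes, and 0.216 in WT against 0.998 in H2A.L.2-less round spermatids. Condensing nucleosomes were at 1.52 and 1.44 and small structures at 0.646 and 0.615. No stretch of over 5 kb was empty in all 8 lists (the longest was 2020 bp). The longest gap of WT spermatocytes, 27795 bp at chr7:32593396-32621191, held 39 summits in H2A.L.2-less spermatocytes, 58 in H2A.L.2-less round spermatids and 8 in WT round spermatids. Condensing nucleosomes had 64 and 68 in it. WT round spermatids had 40 such stretches over 275560 bp (13.8%), in which H2A.L.2-less round spermatids had 518 summits and WT spermatocytes 46. Their longest was 13390 bp at chr7:33259981-33273371.

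At 10 kb, 4 of 200 stretches had no position in WT spermatocytes and 1 had none in WT round spermatids, and 0 had none in each of the other 6 lists. The median stretch had 7 positions in WT against 16 in H2A.L.2-less spermatocytes. It had 11 and 22 at the round spermatid stage, and 26 and 25.5 condensing nucleosomes. The highest stretch had 33 and 35 at the spermatocyte stage, 40 and 38 at the next and 42 and 44 in condensing nucleosomes, and in both early WT lists it lay before 32.5 Mb. Past 32.5 Mb a stretch could be dense in H2A.L.2-less cells and thin in WT: the 10 kb at chr7:32560001-32570000 held 5 and 29 positions in spermatocytes and 7 and 32 in round spermatids. Pearson's r over the 200 stretches was 0.91 between WT spermatocytes and WT round spermatids, and 0.56 between the genotypes in each of the 2 stages. WT and H2A.L.2-less small structures had an r of 0.90 and condensing nucleosomes of 0.67, again over neighbouring stretches, which may not be independent.

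Going from stage to stage, the comparisons below share libraries with those above, and in WT they share the round spermatid list that the window was selected on. From spermatocytes to round spermatids the log2 change of relative density in the window was 0.42 in WT (0.34 to 0.51) and 0.43 in H2A.L.2-less cells (0.36 to 0.49). Density thus rose in both genotypes between these lists, from different levels. In the flanks it was 0.13 and 0.15 in WT. In H2A.L.2-less cells it was -0.20 in the left flank, and in the right flank the ratio of densities was 0.9999. A log2 change of at least 1 was seen in 1 of 20 steps in WT, against 0.0333% of autosomal steps, and in 0 of 20 in H2A.L.2-less cells, against 0.025%.

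From round spermatids to condensing nucleosomes the log2 change was 1.56 in WT (1.496 to 1.63) and 0.51 in H2A.L.2-less cells (0.45 to 0.57). The WT value was the highest of 1220 autosomal windows, whereas 57 windows were higher than this one in H2A.L.2-less cells. The flanks changed by 0.13 and 0.42 in WT and by 0.67 and 0.51 in H2A.L.2-less cells. In WT 16 of 20 steps were at least 1, against 0.338% of autosomal steps, and in H2A.L.2-less cells 0 of 20, against 0.529%. The genotypes were thus near each other at the condensing stage, from a lower round spermatid level in WT. That low level is part of what the window was selected on, so nothing is read from the WT rank and step count.

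Small structures were sparse beside the condensing nucleosomes of the same cells. Their log2 ratio to condensing nucleosomes was -1.01 in WT (-1.07 to -0.95) and -1.09 in H2A.L.2-less cells (-1.16 to -1.02). The left flank was on the other side, at 0.39 and 0.51, and the right flank at -0.15 and -0.08. Low ratios went on into the right flank, however. Its steps from 34 to 34.6 Mb were at -1.17 to -0.94 in WT and -1.29 to -0.83 in H2A.L.2-less cells, near the values of the window. A ratio of at most -1 was found in 12 of 20 steps in WT, against 10.5% of autosomal steps, and in 12 of 20 in H2A.L.2-less cells, against 15.8%. Only 27 and 26 of the 1218 windows had a lower ratio.

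The height of a position is its summit value, the coverage at the summit, taken over the list median because lists have no common scale. Median height in the window was 0.897 in WT against 0.964 in H2A.L.2-less spermatocytes. In round spermatids the values were 0.933 and 1.02. The calling floor, read as the first percentile of the list, was 0.741, 0.768, 0.733 and 0.824 of the list median in the same order. Over that floor the window medians were 1.21 and 1.26 in spermatocytes, but 1.27 in WT and 1.24 in H2A.L.2-less round spermatids, so on this scale the round spermatid genotypes changed order. Positions of the window in WT spermatocytes were few and low on both scales. In that list 38.3% of them were below the list's lower quartile, against 24.0% of autosomal positions, and in H2A.L.2-less spermatocytes 26.3% against 22.0%. For round spermatids the shares were 33.2% against 24.8% in WT and 21.5% against 23.4% in H2A.L.2-less cells. The H2A.L.2-less median was higher in 20 of 20 steps in spermatocytes and in 19 of 20 in round spermatids. In the left and right flank it was higher in 5 and 9 of 20 in spermatocytes and in 5 and 5 of 20 in round spermatids. The round spermatid lists are those the window was selected on, so nothing is read from their count.

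Condensing nucleosomes of the window were a little higher than their lists, at 1.04 in WT against 1.08 in H2A.L.2-less cells, as in the flanks, at 1.04 to 1.06. Small structures were lower, at 0.927 and 0.9, against 1.32 and 1.25 in the left and 1.15 and 1.10 in the right flank. Beside its flanks, taken over their whole 2 Mb, the window was thus poorer in small structures by height and number in both genotypes. The right flank next to it was alike. In the steps from 34 to 34.6 Mb height was 0.878 to 0.976 in WT and 0.9 to 0.975 in H2A.L.2-less cells. Relative density there was 0.840 to 0.963 in WT and 0.710 to 0.913 in H2A.L.2-less cells. As a mean, height changed order between genotypes, to 1.059 in WT and 1.079 without H2A.L.2. For small structures the H2A.L.2-less step median was higher in 7 of 20 steps.

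Fuzziness is a score the authors gave each position for the spread of its fragments, higher for a wider spread. Its median in the window was 52.1 in WT against 52.7 in H2A.L.2-less spermatocytes, while round spermatids had 52.2 and 52.5. Condensing nucleosomes had 55.2 and 55.3, and small structures 52.0 and 49.999. The difference from the list median was -1.24 and -0.47 in spermatocytes and -1.06 and -0.20 in round spermatids. Condensing nucleosomes differed by 0.98 and 0.95 the other way. The few positions that the early WT lists held in the window thus scattered less than their list, and those of the condensing stage more. Among positions at or above the list median the window medians were 51.59 and 51.59 in spermatocytes and 51.63 and 51.57 in round spermatids, so the genotype difference was not seen in the stronger positions. Step by step H2A.L.2-less positions were fuzzier in 18 of 20 steps in spermatocytes, 15 of 20 in round spermatids, 10 of 20 in condensing nucleosomes and 0 of 20 in small structures. In the left flank WT was fuzzier in 17 of 20 steps in spermatocytes and 19 of 20 in round spermatids, the opposite of the window. For small structures WT was fuzzier in 20 of 20 steps in each flank, as in the window.

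**Figure D3:**
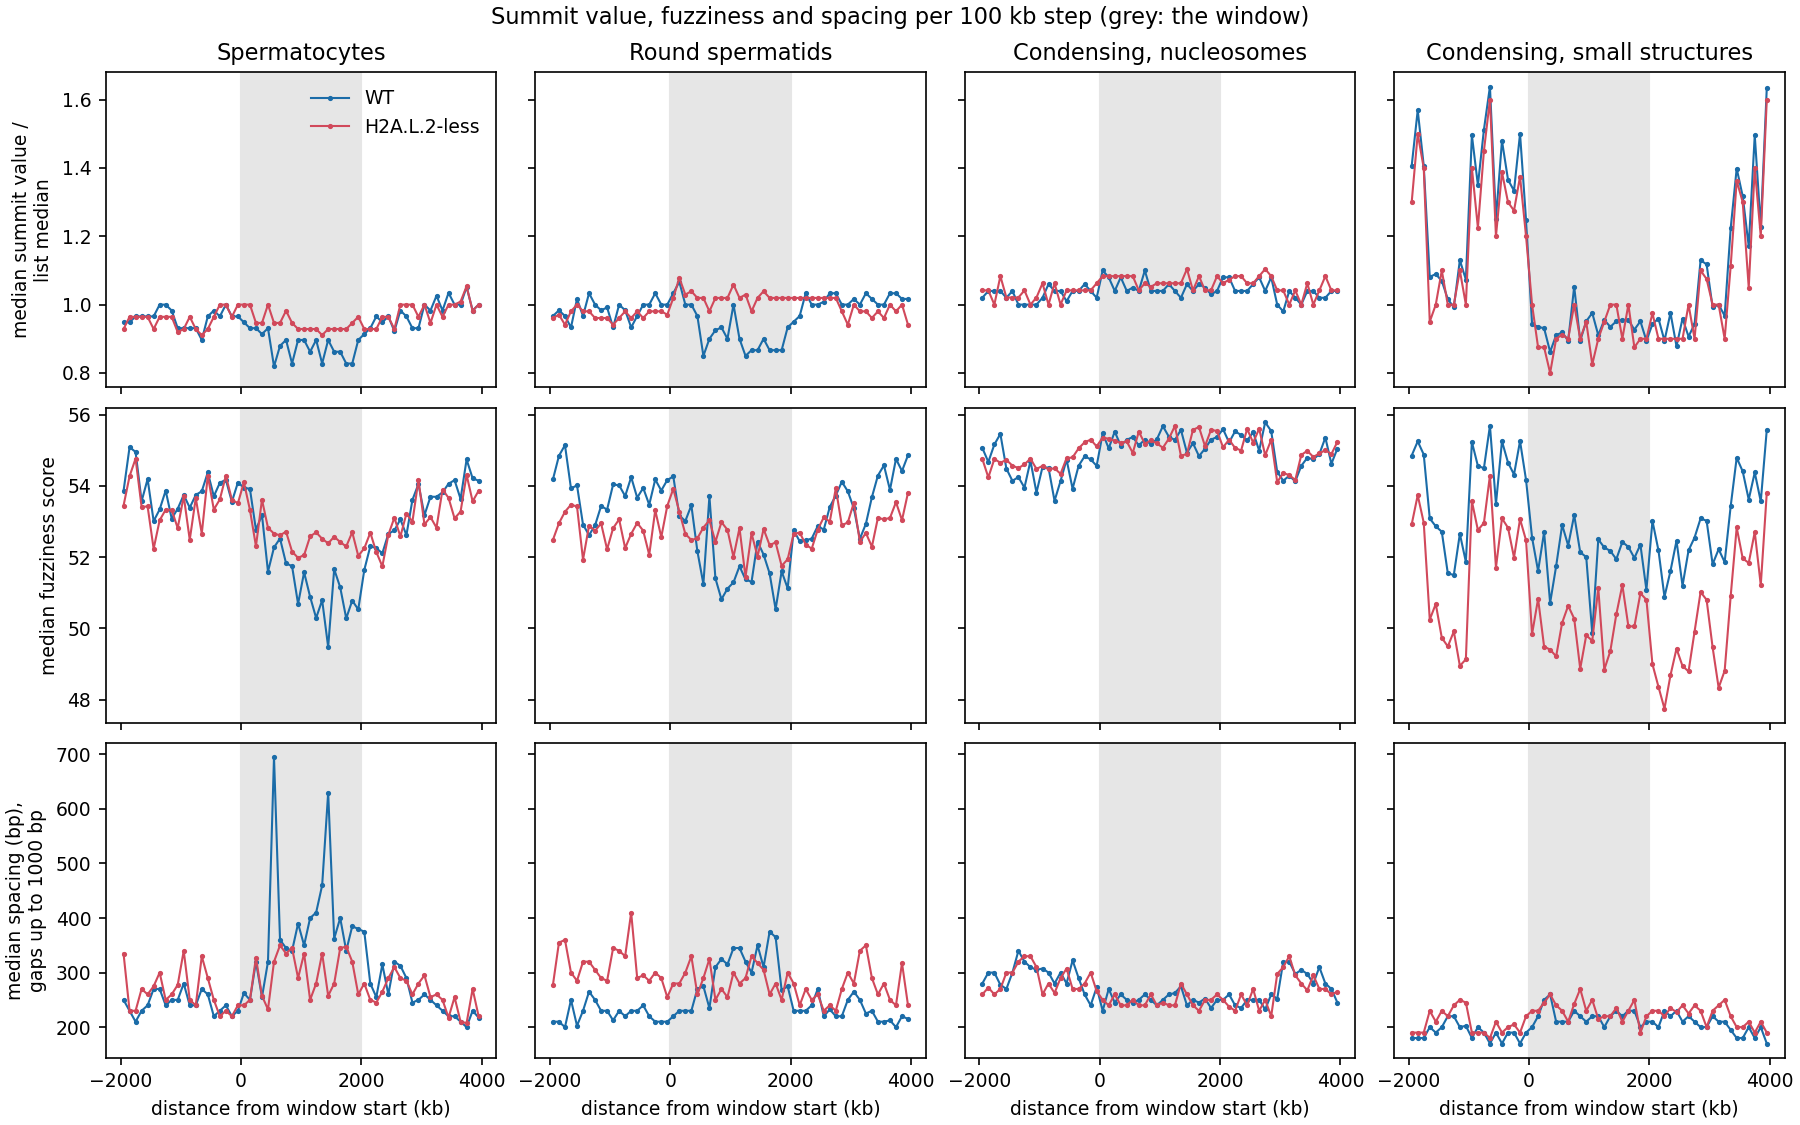
Median summit value over the list median, median fuzziness score and median spacing in bp per 100 kb step, against distance from the start of the window, with 1 panel per measure and stage or fragment class and 1 line per genotype. The shaded 2 Mb are the window. Spacing of WT spermatocytes peaks at 695 bp in the step at 32.5 Mb, which held only 16 positions. Height of WT spermatocytes lies below that of H2A.L.2-less cells in 20 of 20 steps of the window, against 5 and 9 of 20 in the left and right flank.

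Spacing, the distance between neighbouring summits up to 1000 bp apart, had a median of 330 bp in WT against 295 bp in H2A.L.2-less spermatocytes, against list medians of 250 and 260 bp. In round spermatids it was 270 and 290 bp, against 240 and 290 bp. In condensing nucleosomes it was 250 bp in both genotypes, against 310 and 300 bp, and in small structures 220 and 230 bp, against 210 and 230 bp. So neighbours lay wider apart than in the list as a whole in spermatocytes of both genotypes and in WT round spermatids, and closer together in condensing nucleosomes. Over gaps up to 500 bp the spermatocyte medians were 222.5 and 220 bp, and over gaps of any length the round spermatid medians changed order, to 360 and 320 bp. Gaps of over 1000 bp were 26.6% of all gaps in WT against 14.5% in H2A.L.2-less spermatocytes. In round spermatids the values were 19.6% and 6.91%. For condensing nucleosomes they were 4.77% and 5.12%. In WT spermatocytes such gaps covered 73.3% of the length of the window, in H2A.L.2-less spermatocytes 46.5%, and in WT and H2A.L.2-less round spermatids 63.8% and 24.1%.

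Short of the gaps, the early lists showed a repeat. Numbers of summit pairs were counted by distance, and regularity is the peak between 330 and 450 bp over the trough between 230 and 330 bp. It was 1.94 in WT against 2.10 in H2A.L.2-less spermatocytes. In round spermatids the values were 2.03 and 2.57. The autosomal values were 1.70, 1.89, 1.82 and 2.17. Condensing nucleosomes were at 1.10 and 1.17, against 1.05 in each list, nearly without a repeat. Small structures were at 1.23 and 1.19, against 1.02. The number of pairs between 230 and 450 bp behind these values ran from 668 in WT spermatocytes to 3610 in WT condensing nucleosomes, and the former is the least precise. A peak over a trough comes out higher where pairs are few, and the window was above the autosomes in all 8 lists, so no greater regularity is read from these values.

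**Figure D4:**
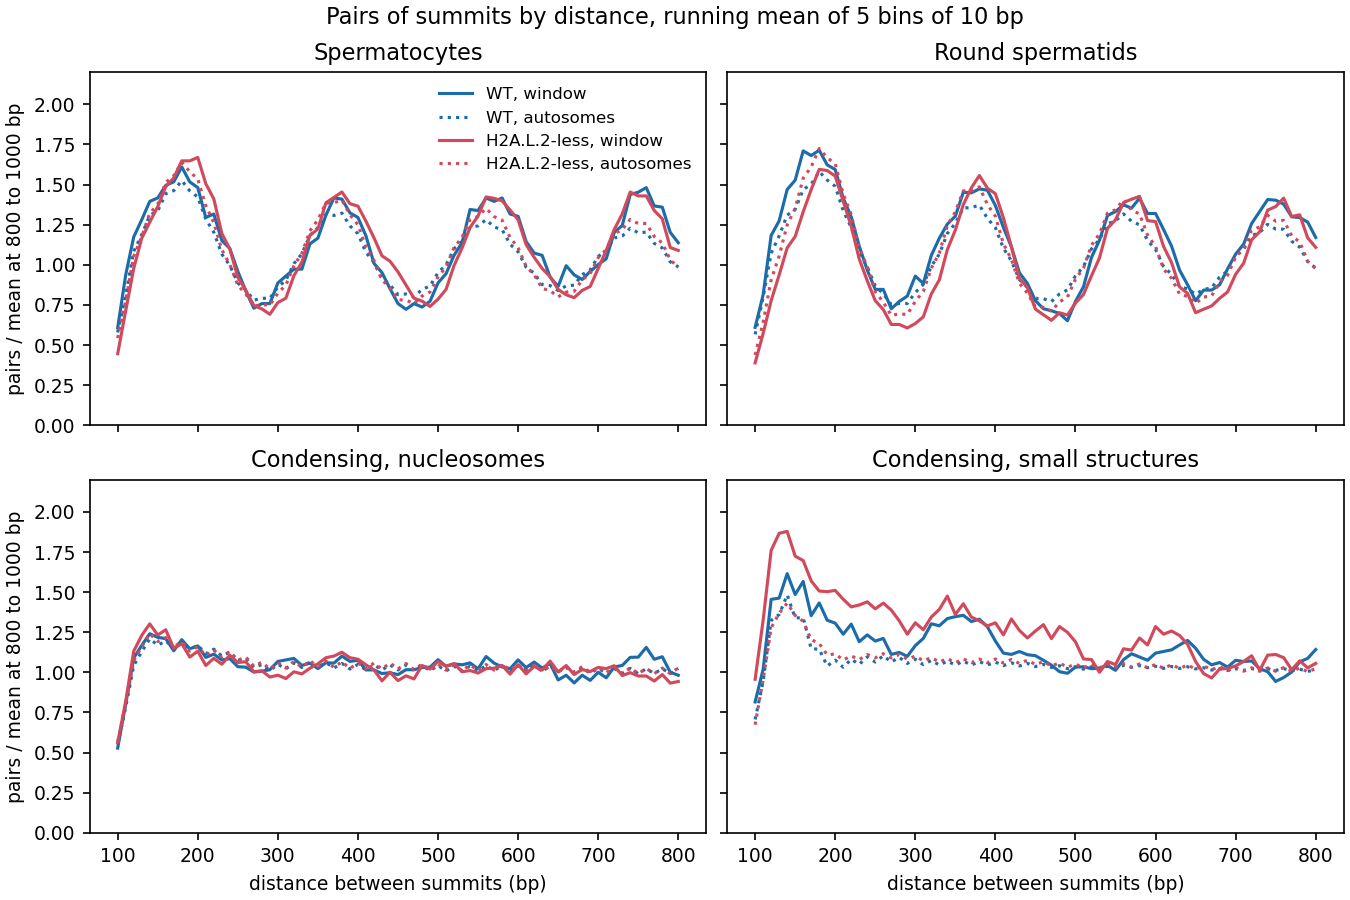
Pairs of summits per 10 bp of distance over the mean from 800 to 1000 bp (running mean of 5 bins), against distance in bp, with 1 panel per stage or fragment class, 1 colour per genotype, full lines for the window and dotted lines for chromosomes 1 to 19. Peaks near 190 and 380 bp with a trough near 290 bp stand out in the spermatocyte and round spermatid lists, where regularity was 1.94 to 2.57, and are faint in condensing nucleosomes.

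Positions were matched between genotypes where summits lay within 40 bp, and chance was the share after moving the other list by 5000 bp to either side. Of WT positions in the window 51.2% were matched in H2A.L.2-less spermatocytes (49.0 to 53.5%, Wilson), with 15.1% by chance, and 51.6% in round spermatids (49.6 to 53.5%), with 19.98% by chance. The autosomal shares were 51.5% and 43.6%. So WT positions of the window were found again about as often as on the autosomes in spermatocytes, and more often in round spermatids, where the flanks had 34.4% and 41.0%. Of H2A.L.2-less positions only 27.8% were matched in WT spermatocytes (26.3 to 29.3%) and 29.0% in WT round spermatids (27.7 to 30.4%), against 56.0% and 49.3% on the autosomes. The matched share follows the number of positions in the other list, and against chance (8.24% and 11.3%) it was 3.37 and 2.57 times as high, beside 2.61 and 2.36 times on the autosomes. Most H2A.L.2-less positions of the window thus had no WT summit within 40 bp. The WT lists also held fewer positions there, so nothing more is read from this share.

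Unmatched positions were lower than matched ones. In H2A.L.2-less spermatocytes the median height was 1.04 of the list median for matched and 0.929 for unmatched positions, and in round spermatids 1.10 and 1. In WT the values were 0.931 and 0.862 in spermatocytes and 0.967 and 0.9 in round spermatids. Positions of H2A.L.2-less round spermatids without a WT summit within 40 bp were therefore as high as the median of their list.

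Condensing nucleosomes matched in 37.3% of WT positions (36.1 to 38.6%), with 24.0% by chance, a ratio of 1.55 beside 1.85 on the autosomes. Small structures matched in 53.2% (51.6 to 54.8%), with 11.7% by chance, a ratio of 4.56 beside 2.58 on the autosomes. The share itself was lower than on the autosomes (57.9%) and in the left and right flank (67.7% and 62.4%, at 1.94 and 2.34 times chance). The ratio to chance was higher in the window because the share by chance was lower there. Between stages 53.1% of WT spermatocyte positions were matched in WT round spermatids and 50.3% in H2A.L.2-less cells. Round spermatid positions were matched among condensing nucleosomes in 38.7% in WT against 36.02% in H2A.L.2-less cells. WT small structures were matched among WT round spermatid nucleosomes in 28.2%, 2.52 times chance, beside 1.73 times on the autosomes.

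**Figure D5:**
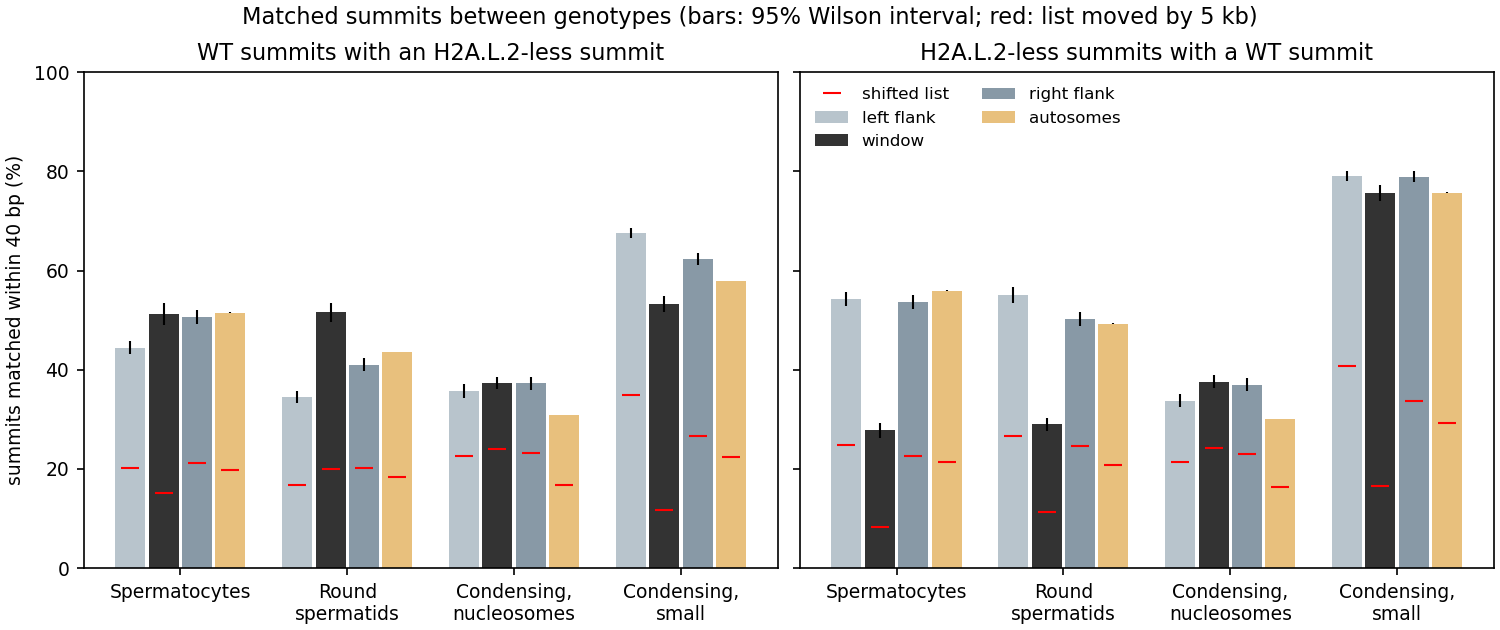
Percent of WT positions matched within 40 bp in the H2A.L.2-less list (and the reverse) in the window, the flanks and on chromosomes 1 to 19, with the share after a shift of 5000 bp as the chance level and 95% Wilson intervals for counting error. In spermatocytes 51.2% of WT positions were matched but 27.8% of H2A.L.2-less ones.

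The highest summits of the window were few sites shared by many lists. A site at chr7:33099771-33099781 was among the 3 highest of the window in all 8 lists. Its height was 13.3 and 13.0 list medians in WT and H2A.L.2-less spermatocytes, while round spermatids had 10.3 and 12.4. Condensing nucleosomes reached 9.32 and 10.3 there, and small structures 9.58 and 6. A site at chr7:33216431-33216471 was among the 3 highest in 6 lists. Its height was 6.21 and 4.63 list medians in spermatocytes, while round spermatids had 3.25 and 4.78 and condensing nucleosomes 7 and 6.88. Both lie in the segment that was otherwise thin in WT and stood high there in both genotypes.

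Small structures had high sites of their own. At chr7:33214841-33214851 they reached 8.81 list medians in WT against 6.60 in H2A.L.2-less cells, while the 6 nucleosome lists had 1.40 to 1.98 there. At chr7:33457021-33457061 they reached 4.95 and 5.10. No spermatocyte or round spermatid list had a position there, and of the condensing nucleosome lists only WT did, at 0.96. Sites at chr7:33187021-33187061 and chr7:33214651-33214661 were among the 3 highest in 3 and 2 lists and had a position in all 8. A site at 33881611 was among the 3 highest only in H2A.L.2-less condensing nucleosomes, at 2.88, where the other 5 lists with a position had 1.38 to 2.72. Genes and sequence at these sites were not analysed here, since no mm9 genome or annotation was used.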

How the data were processed

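MNase-protected DNA of 8 libraries was sequenced in 3 runs per sample that were merged, with 207000000 to 753000000 reads in each, per the series description. Bowtie2 2.2.9, deepTools 2.2.4 and mm9 are named in the submitters' processing notes. The read number of each library, and how the caller was set and which version was run, are not given in the sources used here. Columns in the deposited lists, per the file headers, include the summit, the summit value, which is a coverage signal, and the fuzziness score set by the authors. Positions were 140 bp wide.

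Samples were grouped from their titles by stage, genotype and fragment class. Summits in the window, its 2 Mb flanks and steps of 100 kb were counted and divided by the mean of chromosomes 1 to 19 of the same list. Genotype and stage ratios have 95% exact conditional binomial intervals, matched shares Wilson intervals, and medians order-statistic intervals. Stretches without a summit were listed above 5 kb. Named steps are the 3 with the highest and the 3 with the lowest round spermatid ratio, and named sites the 3 highest summits of each list. The members and lists were chosen with earlier results of these data known. The segment of the last 15 steps and the right flank part up to 34.9 Mb were chosen after seeing the data. So were the stretches of 10 kb, the distance curves and the heights of matched positions. The alternatives were equal numbers of positions per list, stronger positions only, other scalings, widths, minimums, gap and matching limits, and mean in place of median. The counting, matching and distance code was checked on simulated data. Genes were not placed in the window, since only an annotation of another build was used, and no sequence is printed. Analyses used Python 3.11.15, numpy 2.4.6, pandas 2.3.3, scipy 1.17.1 and matplotlib 3.10.9.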

Additional observations from a re-analysis of the deposited data

Results flagged for a closer look

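The ratio of density between the genotypes' libraries in the window differed between the early stages and the condensing stage. The log2 ratio of relative density, H2A.L.2-less over WT, was higher in spermatocytes than in condensing nucleosomes by 1.049 and than in small structures by 1.124. For round spermatids it was higher by 1.055 and by 1.13. Density was higher without H2A.L.2 in both early comparisons. For condensing nucleosomes the counting interval of the ratio included 0, and for small structures the ratio was slightly below 0. The difference was not tested, since each ratio compares 1 library with 1 library, and the round spermatid contrast chose the window.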

How the results depend on the processing

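No paired analysis was possible because each group had 1 library. Of 156 values recomputed under an alternative, 59 stayed, 97 moved, and the cause was not tested. The limit was the counting interval, or a set ratio to the main value for the 12 shares of steps with a log2 ratio of at least 1. The 8 relative densities without empty stretches could not move, since no such stretch existed. Shares of steps without a minimum could not move either, since all 20 steps passed it. No genotype or stage ratio of density changed sign. The order of the genotypes did change for round spermatid spacing over gaps of any length, round spermatid fuzziness at or above the list median and the mean height of small structures. It was lost for spermatocyte fuzziness at or above the list median and for small-structure spacing over gaps up to 500 bp. The number of reads per library is not known here, so how many weak nucleosomes were missed cannot be read from these lists.

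The spermatocyte genotype ratio of 1.002 became 1.263 with equal numbers of positions per list (the 3779744 highest), 1.379 for positions at or above the list median, 1.22 at or above the lower quartile, 0.8819 without scaling, 0.6284 in the first and 1.572 in the second Mb, and 1.49 without the first 5 steps (chosen after seeing the data). The round spermatid ratio of 1.01 became, in the same order, 1.259, 1.421, 1.212, 0.8286, 0.7181, 1.389 and 1.353, and 1.312 when scaled to the flanks. The condensing nucleosome ratio became -0.1023 at or above the lower quartile. The small-structure ratio became -0.2357 scaled to the flanks and -0.5089 without scaling.

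With equal numbers and, after that, at or above the list median, the WT stage ratios became 0.5434 and 0.6983 (spermatocytes to round spermatids), 1.783 and 2.138 (to condensing nucleosomes) and -1.106 and -1.454 (to small structures). In H2A.L.2-less cells the first became 0.5394 and 0.7397, and at or above the list median the others became 0.6234 and -1.495.

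As a mean, height became 0.973 and 1.019 in spermatocytes, WT before H2A.L.2-less, 1.021 and 1.084 in round spermatids, 1.109 and 1.122 in condensing nucleosomes and 1.059 and 1.079 in small structures. With equal numbers it became 0.9375, 0.9667, 0.9851 and 1.019 in the early lists, 1.061 in H2A.L.2-less condensing nucleosomes and 0.9595 and 0.9524 in small structures. At or above the list median, fuzziness became 51.59 and 51.59, 51.63 and 51.57, 54.73 and 54.8, and 52.79 and 50.41. With equal numbers it became 52.33 in spermatocytes without H2A.L.2, 51.91 and 52.25 in round spermatids and 52.37 in WT small structures. Spacing over gaps of any length became 470 and 360 bp, 360 and 320 bp, 260 bp (H2A.L.2-less condensing nucleosomes) and 240 and 280 bp. Over gaps up to 500 bp it became 222.5 and 220, 210 and 220, 220 and 220, and 200 and 200 bp. With equal numbers it became 380 and 345 bp in spermatocytes and 320 and 330 bp in round spermatids.

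Matching within 20 bp found 36.8%, 36.15%, 23.63% and 42.69% of WT positions (spermatocytes, round spermatids, condensing nucleosomes, small structures), at 4.196, 3.273, 1.8 and 6.545 times chance. Within 73 bp it found 65.34%, 64.04%, 55.25% and 60.57%, at 2.509, 1.869, 1.404 and 3.212 times chance. Chance from a shift of 2000 bp gave 2.916 times in spermatocytes and 3.992 in small structures. With equal numbers the shares became 48.46% in round spermatids and 62.27% in small structures, and the ratios to chance 4.298 in spermatocytes, 2.97 in round spermatids and 5.942 in small structures.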
